A study of Zea mays with 8 samples.

Results

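A set of 120 maize genes was examined whose transcripts were higher under drought in the ovary and lower under drought in the basal leaf meristem. They were taken from 23586 genes measured in both tissues. A gene was eligible at a mean of at least 1 FPKM in each tissue with no library at 0, which left 19688 genes. It was then kept where both drought libraries lay above both well-watered libraries in the ovary and below both in the leaf, which held for 3139 genes. The 120 members had the highest score, defined as the smaller of the ovary log2 change and the size of the leaf decrease, so that a member had to differ in both tissues. The members were thus chosen by their measured drought changes in both tissues. Their values there are a description and carry no test, and the libraries held no independent measure of the same genes.

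The plants were of inbred line B73, the maize strain of the reference genome, grown in a greenhouse to silk emergence. The 4 groups were drought-stressed ovaries, well-watered ovaries, drought-stressed basal leaf meristem and well-watered basal leaf meristem, with 2 libraries of polyadenylated RNA in each. Drought meant that irrigation was withheld for 2 to 3 days before hand pollination, and all tissue was collected 24 hours after pollination. Leaf tissue was the basal meristem of the 3 youngest leaves, and the design text of the series names the ovary samples of the controls as ovaries or cob. The labels say that the replicates are biological, but the design text of the series counts 1 biological replicate per condition. Nothing says that the replicates came from separate plants, so p-values here measure the spread between these libraries.

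A young maize ovary and the base of a growing leaf are both sinks, organs that import sugar and grow by cell division and expansion. Drought around pollination is known to stop ovary growth and cause kernel loss, and it also slows leaf elongation. Transcription factors of the MYB and TCP families, hormone enzymes and calcium-regulated kinases are among the gene classes that set growth and stress responses in such tissues. Only 13 members carry a gene name, of which 12 are described here, and the roles given for those are background.

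FPKM is a fragment count divided by gene model length and by the library's mapped fragments, so levels of different genes can be set side by side. Both tissues were deposited as separate tables, and levels set across them are description only. Read depth was not used here. Library sums of FPKM were 783683 to 843595 in the leaf and 661161 to 710996 in the ovary, apart from well-watered ovary library 2. That library summed to 9.21e+06 FPKM through 2 genes that are not members, and to 733453 without them. The other ovary libraries summed to 651936 to 699680 FPKM without their own 2 highest genes. Replicate libraries correlated across genes, which are not independent, at a Pearson r on log2(FPKM + 1) of 0.980 for drought ovaries, 0.964 for well-watered ovaries, 0.985 for drought leaves and 0.953 for well-watered leaves. Between conditions it was 0.646 to 0.712 in the ovary and 0.873 to 0.930 in the leaf. In the leaf the lower values, 0.873 and 0.894, were those of well-watered library 2.

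Tissue markers were read as the summed FPKM of lists of gene symbols. Floral MADS-box genes summed to 2996 and 3215 FPKM in drought ovaries and 3120 and 2875 FPKM in well-watered ovaries, over 27 genes with none at 0 in any library. The same list summed to 345 and 348 FPKM in drought leaves and 278 and 306 FPKM in well-watered leaves, over 12 genes. Photosynthesis genes summed to 26930 and 30767 FPKM in drought leaves and 22696 and 28617 FPKM in well-watered leaves. KNOX genes, known from shoot meristems, summed to 50.6 and 44.9 FPKM in drought leaves and 53.5 and 51.1 FPKM in well-watered leaves, over 5 genes. In ovaries they summed to 172 and 164 FPKM in drought and 102 and 82.5 FPKM when well watered, over 9 genes. A broader list held KNOX and leaf patterning genes, 26 in the ovary with 1 at 0 in some library. It summed to 670 and 861 FPKM in drought ovaries and 874 and 933 FPKM in well-watered ovaries. In leaves it summed to 192 and 174 FPKM in drought and 207 and 180 FPKM when well watered, over 18 genes. The sum of floral genes was thus higher in the ovary, over more genes, and that of photosynthesis genes in the leaf. Not every floral gene followed its sum: MADS76 and m19 were higher in each leaf library than in any ovary library. These lists do not set the leaf samples apart as meristem. Of 9 KNOX genes tested in the ovary limma called 6 higher, against 23.6% of all genes tested, and 7 were higher at an unadjusted p under 0.05. In the leaf it called 0 of 4, with 0 at an unadjusted p under 0.05. Of the broader list limma called 9 higher and 6 lower of 26 in the ovary, and 0 of 17 in the leaf. Of 4 eligible KNOX genes 3 were separated upward in the ovary and downward in the leaf, against 15.9% of eligible genes. Among these, the log2 changes, drought minus well watered, were small for knox6, at 0.12 (ovary) and -0.22 (leaf). For knox8 they were 0.63 and -0.10. The KNOX list by symbol was drawn up after the members were seen, as relatives of named members. Members count towards it, so its counts and shares are a description.

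Several lists differed between conditions or between replicates. Cell division genes, of which 2 of 59 were at 0 in some ovary library, summed to 2114 and 2113 FPKM in drought ovaries and 10359 and 12231 FPKM in well-watered ovaries. In leaves cell division genes, 2 of 53 with a library at 0, summed to 3118 and 3533 FPKM in drought and 5140 and 2058 FPKM when well watered, so the well-watered leaf libraries lay on either side of the drought ones. Photosynthesis genes, of which 2 of 44 were at 0 in some ovary library, summed to 1359 and 1382 FPKM in drought ovaries and 3104 and 4257 FPKM in well-watered ovaries. Genes of lignified vascular tissue, of which 2 of 14 were at 0 in some library, summed to 190 and 285 FPKM in drought ovaries and 1443 and 2434 FPKM in well-watered ovaries. Pollen and anther genes, 1 of 10 with a library at 0, summed to 284 and 308 FPKM in drought ovaries and 744 and 742 FPKM in well-watered ovaries. In leaves they summed to 1030 and 963 FPKM in drought and 1143 and 1071 FPKM when well watered, over 8 genes. Endosperm storage genes were low, at 63.1 and 58.9 FPKM in drought ovaries and 48.0 and 40.2 FPKM in well-watered ovaries. In leaves they summed to 73.5 and 85.3 FPKM in drought and 62.1 and 44.6 FPKM when well watered, over 5 genes. Pollen and anther genes and endosperm storage genes were thus not higher in the ovary than in the leaf. The part of these lists in the members' values was not tested, and in bulk tissue fewer cells of a type and less RNA per cell cannot be told apart.

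The ovary changes of the members were wider than the leaf changes. All changes are differences of mean log2(FPKM + 1), drought minus well watered, a scale that understates the change of low genes, and each is given ± its limma standard error (n = 2 libraries per group). In the ovary the 120 changes ran from 0.83 to 5.08 with a median of 1.60, and 100 were above 1, 41 above 2 and 11 above 3. In the leaf they ran from -2.30 to -0.80 with a median of -1.04, and 65 were below -1, 20 below -1.5 and 2 below -2. The median change of all genes tested was -0.05 (ovary) and -0.06 (leaf). The leaf change was the smaller in 94 members and so set their score, and the ovary change set it in the other 26.

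**Figure D1:**
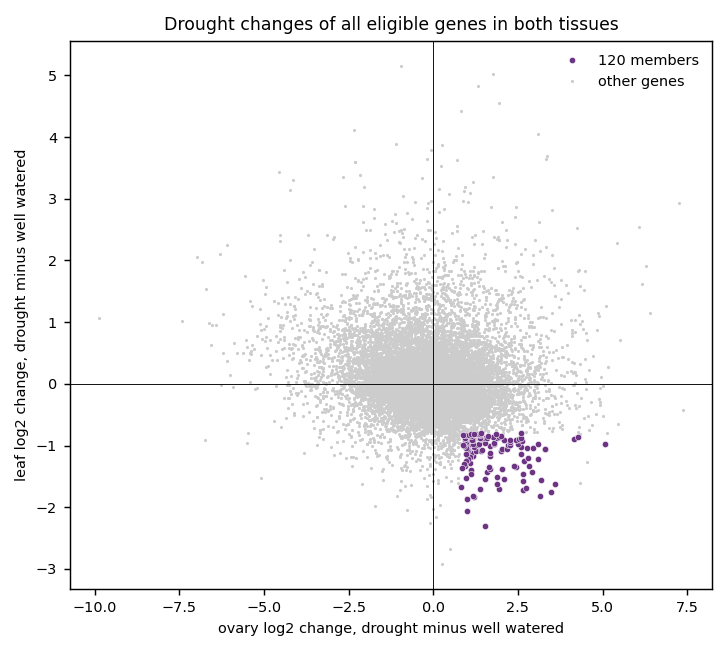
Ovary log2 change (x axis) against leaf log2 change (y axis), drought minus well watered on the log2(FPKM + 1) scale, for each of the 19688 eligible genes. The 120 members, in purple, fill the lower right corner that the rule cuts out, from 0.83 to 5.08 on the ovary axis and from -2.30 to -0.80 on the leaf axis.

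The rule's own separation was common among eligible genes. Both drought libraries lay above both well-watered ones in 38.1% of eligible genes in the ovary, and below both in 35.8% in the leaf. Both conditions together held in 15.9%, which was 41.8% of the genes separated upward in the ovary and 44.5% of those separated downward in the leaf. The 3019 genes of the same pattern that were not taken were left out by their score alone, and their other traits were not compared with those of the members. In limma fits of each whole table, at a Benjamini-Hochberg adjusted p under 0.05, 114 members were called higher in the ovary, where 23.6% of 23770 tested genes were called higher and 29.5% lower. In the leaf 16 members were called lower, where 0.906% of 22418 tested genes were called lower and 2.35% higher. Since the same contrasts chose the members, nothing is read from these counts. They also changed with any library left out, in fits that have fewer residual degrees of freedom. The ovary count was 73 without drought library 2, 74 without well-watered library 1 and 66 without well-watered library 2. The leaf count was 55 without well-watered library 1 and 4 without well-watered library 2. With limma it was 0 without either drought library, where 82 members (without drought library 1) and 50 members (without drought library 2) were at an unadjusted p under 0.05.

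How far the libraries lay apart differed between members. In the ovary the lowest drought library stood 1.02-fold to 35.1-fold above the highest well-watered library, with a median of 2.53-fold, and 89 members had a gap of at least 2-fold. In the leaf the lowest well-watered library stood 1.05-fold to 5.49-fold above the highest drought library, with a median of 1.62-fold, and 30 members had a gap of at least 2-fold. A gap under 1.3-fold was found in the ovary for 4 members and in the leaf for 15. GRMZM2G454056 shows the narrowest ovary gap: it stood at 65.1 and 18.03 FPKM in drought ovaries and 17.7 and 12.3 FPKM in well-watered ovaries, so 1 drought library carried most of its ovary change.

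The libraries of one condition also differed among themselves in a shared direction. Drought ovary library 2 was above library 1 in 94 members (78.3%, against 53.1% of eligible genes), and well-watered ovary library 1 was above library 2 in 82 (68.3%, against 57.2%). Drought leaf library 1 was above library 2 in 102 members (85%, against 48.1%), and well-watered leaf library 2 was above library 1 in 100 (83.3%, against 42.6%). In the leaf, members were thus mostly highest in well-watered library 2, the library with the lowest correlation to the drought leaves. The part of that library in the choice of members is seen by leaving it out: 80 of the 120 were chosen again without it, 78 without well-watered leaf library 1, and 86 and 90 without drought leaf libraries 1 and 2.

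Members were mid-range transcripts in the conditions where they were high. Their median level was 11.5 and 15.5 FPKM in drought ovaries and 3.92 and 3.04 FPKM in well-watered ovaries. The median member stood at percentiles 45.2 and 53.5 of the eligible genes in drought ovaries and at percentiles 15.4 and 12.4 in well-watered ovaries. In the leaf the median level was 7.67 and 6.12 FPKM in drought and 15.2 and 18.3 FPKM when well watered, at percentiles 36.0 and 29.9 in drought and 55.8 and 63.5 when well watered. All members together summed to 3150 and 4103 FPKM in drought ovaries and 901 and 818 FPKM in well-watered ovaries. In leaves the sums were 2710 and 2057 FPKM in drought and 4549 and 7052 FPKM when well watered.

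**Figure D2:**
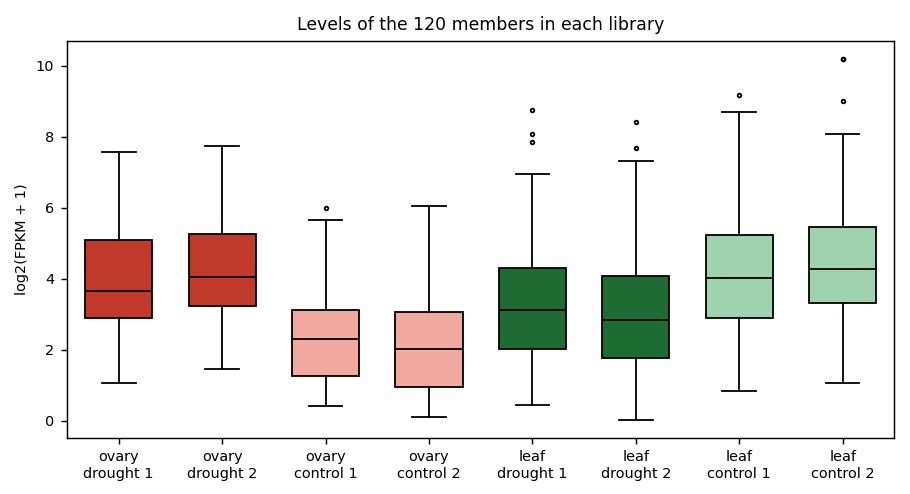
Box plots of log2(FPKM + 1) of the 120 members in each of the 8 libraries (line, median; box, quartiles; whiskers, 1.5 times the box; dots, members beyond). The boxes are high in drought ovaries and in well-watered leaves (control in the axis labels), and low in well-watered ovaries and in drought leaves, as the rule requires.

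The order of the tissues changed with watering in many members. Under drought both ovary libraries were above both leaf libraries in 76 members (63.3%, against 51.4% of eligible genes). With full watering both leaf libraries were above both ovary libraries in 97 members (80.8%, against 29.3%). In 53 members (44.2%) the ovary was above in drought and the leaf above when well watered, an order found in 1377 eligible genes (6.99%). Another 24 members were above in the leaf in both conditions and 8 above in the ovary in both. The median difference of leaf minus ovary was -1.07 in drought and 1.75 when well watered on the log2(FPKM + 1) scale, against -0.24 and -0.28 over eligible genes. The rule shapes these counts, and the levels come from separate tables.

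**Figure D3:**
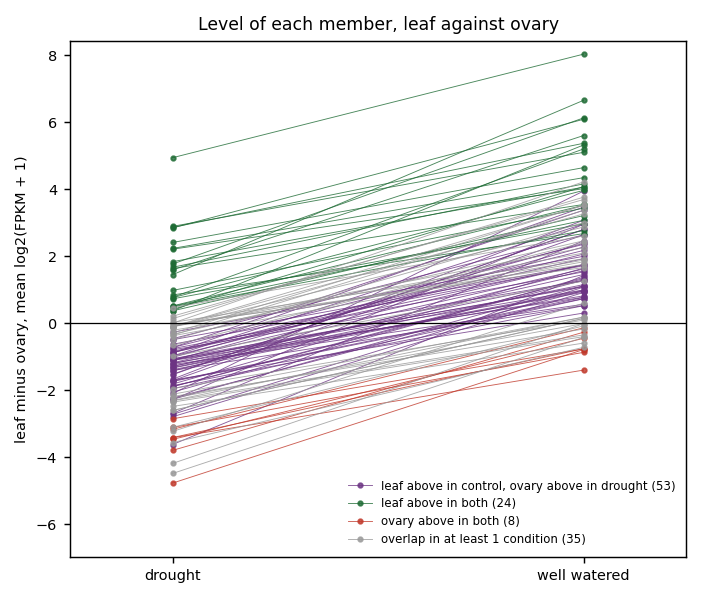
Leaf minus ovary level (difference of mean log2(FPKM + 1)) of each of the 120 members in drought (left) and in well-watered plants (right), with 1 line per member coloured by the order of the libraries. Every line climbs to the right, as the rule requires, and 53 lines (purple) cross 0 with no overlap between tissues in either condition.

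Named members included transcription factor genes. MYB59 (GRMZM2G130149), of the MYB family of DNA-binding factors, stood at 18.1 and 18.4 FPKM in drought ovaries and 7.77 and 5.29 FPKM in well-watered ovaries, a log2 change of 1.37 ± 0.21. In leaves MYB59 stood at 10.7 and 10.5 FPKM in drought and 31.9 and 43.1 FPKM when well watered (-1.71 ± 0.18). Its drought libraries lay close together in both tissues, and the ovary was above the leaf in drought and below it in well-watered plants. Another gene with the name MYB59, GRMZM2G093789, is not a member. It had the same pattern with smaller changes, 0.28 in the ovary and -0.51 in the leaf. MYBE1 (GRMZM2G145041), also of the MYB family, stood at 30.3 and 29.9 FPKM in drought ovaries and 12.96 and 12.1 FPKM in well-watered ovaries (1.204 ± 0.151). In leaves MYBE1 stood at 2.52 and 2.401 FPKM in drought and 11.02 and 11.5 FPKM when well watered (-1.83 ± 0.13), with a gap of 4.37-fold between the closest libraries. MYBE1 was above in the ovary in both conditions, but only narrowly when well watered. Leaf minus ovary was -3.17 in drought and -0.14 when well watered on the log2(FPKM + 1) scale. Replicates of MYBE1 lay close together in every group.

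TCP30 (GRMZM2G166946) belongs to the TCP family, plant transcription factors that act on growth of leaves, branches and flowers. It stood at 14.1 and 11.3 FPKM in drought ovaries and 4.94 and 5.66 FPKM in well-watered ovaries (1.12 ± 0.19). In leaves TCP30 stood at 1.93 and 1.41 FPKM in drought and 2.62 and 5.27 FPKM when well watered (-0.84 ± 0.32), where well-watered library 2 lay far above library 1 and the change was -0.45 without it.

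ZCN25 (GRMZM2G021560) encodes a protein of the PEBP family, which includes the flowering regulators FT and TFL1 of Arabidopsis. It stood at 3.67 and 4.55 FPKM in drought ovaries and 1.26 and 1.96 FPKM in well-watered ovaries (0.98 ± 0.22). In leaves ZCN25 stood at 0.544 and 0.536 FPKM in drought and 2.03 and 5.43 FPKM when well watered (-1.52 ± 0.40). Both drought leaf libraries were nearly equal, while the well-watered ones were spread, and the leaf change was -0.98 without well-watered library 2. The gene an1 (anther ear1, GRMZM2G081554) encodes ent-copalyl diphosphate synthase, an early enzyme of gibberellin synthesis. It stood at 5.68 and 3.201 FPKM in drought ovaries and 2.82 and 0.882 FPKM in well-watered ovaries (0.98 ± 0.40). This ovary change was 0.65 without drought library 1, 1.49 without well-watered library 1 and 0.47 without well-watered library 2. In leaves an1 stood at 28.5 and 20.02 FPKM in drought and 45.04 and 63.8 FPKM when well watered (-1.13 ± 0.26). It was a leaf transcript in both conditions, and its ovary libraries were only 1.13-fold apart at the closest.

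Other named members included signalling and metabolic genes. CIPK16 (GRMZM2G330049), a CBL-interacting protein kinase of calcium signalling, stood at 9.78 and 11.6 FPKM in drought ovaries and 2.48 and 3.26 FPKM in well-watered ovaries (1.60 ± 0.20). In leaves CIPK16 stood at 2.19 and 2.80 FPKM in drought and 7.05 and 4.09 FPKM when well watered (-0.88 ± 0.27), a change of -0.55 without well-watered library 1. PPCK3 (GRMZM2G096753) encodes a kinase that phosphorylates phosphoenolpyruvate carboxylase. It stood at 19.9 and 27.6 FPKM in drought ovaries and 10.6 and 10.1 FPKM in well-watered ovaries (1.10 ± 0.20). In leaves PPCK3 stood at 1.18 and 1.38 FPKM in drought and 1.91 and 5.38 FPKM when well watered (-0.92 ± 0.41). The leaf change was -1.48 without well-watered library 1 and -0.35 without well-watered library 2. Its ovary level was above its leaf level in both conditions. The cytochrome P450 gene CYP727A4 (GRMZM2G022947) stood at 15.6 and 15.04 FPKM in drought ovaries and 5.74 and 5.04 FPKM in well-watered ovaries (1.35 ± 0.17). In leaves CYP727A4 stood at 5.72 and 5.201 FPKM in drought and 10.3 and 13.1 FPKM when well watered (-0.97 ± 0.17). Drought ovaries and well-watered leaves were thus at like levels of this transcript, as were well-watered ovaries and drought leaves.

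For the other 4 named members no role is stated. The widest ovary change of all members was that of sat1 (GRMZM2G069203), at 64.5 and 106 FPKM in drought ovaries and 1.84 and 1.16 FPKM in well-watered ovaries (5.08 ± 0.28). In leaves sat1 stood at 18.8 and 18.2 FPKM in drought and 30.6 and 45.3 FPKM when well watered (-0.98 ± 0.22). Its closest ovary libraries were 35.1-fold apart, the widest gap of the set, and its closest leaf libraries 1.63-fold. The gene sat2 (GRMZM2G013430) had its larger change in the leaf, at 5.53 and 4.35 FPKM in drought leaves and 16.5 and 25.4 FPKM in well-watered leaves (-1.86 ± 0.25). In ovaries sat2 stood at 3.12 and 4.08 FPKM in drought and 2.31 and 0.616 FPKM when well watered (0.98 ± 0.36), a gap of only 1.35-fold. The ovary change of sat2 was 1.501 without well-watered library 1 and 0.46 without well-watered library 2.

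The gene lrk1 (GRMZM2G064750) was low throughout, at 2.16 and 3.09 FPKM in drought ovaries and 1.02 and 0.242 FPKM in well-watered ovaries (1.18 ± 0.29). In leaves lrk1 stood at 2.99 and 1.83 FPKM in drought and 4.53 and 9.35 FPKM when well watered (-1.17 ± 0.37), a change of -0.72 without well-watered library 2. PK1 (GRMZM2G328785) stood at 6.44 and 17.8 FPKM in drought ovaries and 4.13 and 3.05 FPKM in well-watered ovaries (1.38 ± 0.44). In leaves PK1 stood at 6.83 and 3.53 FPKM in drought and 8.36 and 11.7 FPKM when well watered (-0.87 ± 0.33). Its replicates were wide apart in drought in both tissues: without drought library 2 the change was 0.71 in ovaries and -0.48 in leaves, and the closest leaf libraries differed by 1.22-fold.

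**Figure D4:**
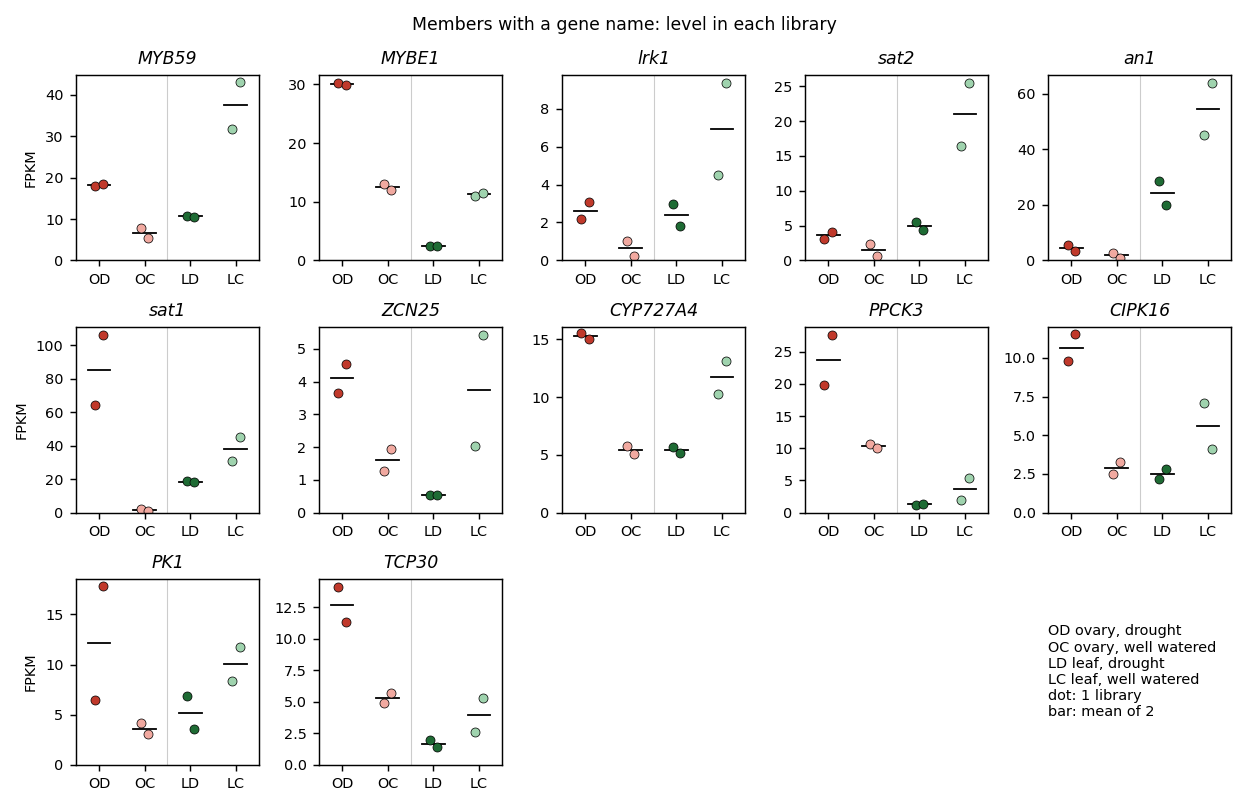
FPKM of 12 named members in drought ovaries (OD), well-watered ovaries (OC), drought leaves (LD) and well-watered leaves (LC), each axis starting at 0; a dot is a library and a bar the mean of 2. The sat1 panel holds the widest ovary difference, at 64.5 and 106 FPKM in drought and 1.84 and 1.16 FPKM when well watered, while an1 and sat2 are higher in the leaf than in the ovary in both conditions.

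The 10 members with the highest score had no gene name in the tables used here. GRMZM2G702599 led, with a score of 1.81: it stood at 9.74 and 10.7 FPKM in drought ovaries and 0.436 and 0.126 FPKM in well-watered ovaries (3.14 ± 0.21). In leaves it stood at 12.4 and 14.8 FPKM in drought and 34.9 and 71.4 FPKM when well watered (-1.81 ± 0.37). Well-watered ovaries held almost none of this transcript. GRMZM2G002396 was less even, at 9.199 and 33.3 FPKM in drought ovaries and 0.774 and 0.558 FPKM in well-watered ovaries (3.49 ± 0.55). In leaves GRMZM2G002396 stood at 5.82 and 1.16 FPKM in drought and 7.899 and 17.7 FPKM when well watered (-1.75 ± 0.68), with replicates wide apart in every group but the well-watered ovary and a leaf change of -0.92 without drought library 2. GRMZM2G165387 was mainly a leaf transcript, at 42.02 and 24.1 FPKM in drought leaves and 79.2 and 144 FPKM in well-watered leaves (-1.72 ± 0.41). In ovaries GRMZM2G165387 stood at 9.601 and 7.77 FPKM in drought and 0.884 and 0.254 FPKM when well watered (2.65 ± 0.26).

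GRMZM2G099003 and GRMZM2G072890, both among these 10, are next to each other in the gene order of the reference. GRMZM2G099003 stood at 4.67 and 4.51 FPKM in drought ovaries and 0.465 and 0.422 FPKM in well-watered ovaries, and at 6.57 and 6.32 FPKM in drought leaves and 16.6 and 32.8 FPKM in well-watered leaves. GRMZM2G072890 stood at 32.8 and 36.9 FPKM in drought ovaries and 2.896 and 2.98 FPKM in well-watered ovaries, and at 12.9 and 8.098 FPKM in drought leaves and 28.1 and 37.1 FPKM in well-watered leaves. The pair differed in level in the ovary but had like ovary ratios between conditions. Neighbouring genes can share reads where models overlap, and whether these do was not analysed here.

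AC205362.4_FG002 stood at 6.801 and 9.35 FPKM in drought ovaries and 0.668 and 0.0693 FPKM in well-watered ovaries, and at 15.8 and 13.1 FPKM in drought leaves and 36.6 and 63.7 FPKM in well-watered leaves. GRMZM2G502350 stood at 4.37 and 7.27 FPKM in drought ovaries and 1.37 and 0.397 FPKM in well-watered ovaries, and at 4.696 and 2.92 FPKM in drought leaves and 9.07 and 20.2 FPKM in well-watered leaves. Both were lowest in well-watered ovary library 2 and highest in well-watered leaf library 2. GRMZM2G132690 stood at 19.3 and 21.2 FPKM in drought ovaries and 3.34 and 1.66 FPKM in well-watered ovaries, and at 23.5 and 17.4 FPKM in drought leaves and 54.0 and 72.2 FPKM in well-watered leaves. GRMZM2G428391 stood at 27.6 and 32.2 FPKM in drought ovaries and 6.49 and 6.02 FPKM in well-watered ovaries, and at 31.9 and 24.1 FPKM in drought leaves and 81.2 and 83.6 FPKM in well-watered leaves. Replicates of GRMZM2G428391 were close in every group, and its change was 2.09 ± 0.17 in ovaries and -1.54 ± 0.17 in leaves.

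Leaf changes were widest in 2 members, named here after their values were seen. GRMZM2G043878 stood at 0.681 and 0.2204 FPKM in drought leaves and 3.74 and 9.51 FPKM in well-watered leaves (-2.30 ± 0.44), and at 7.05 and 21.4 FPKM in drought ovaries and 3.22 and 4.15 FPKM in well-watered ovaries (1.53 ± 0.48). GRMZM2G123212 stood at 6.86 and 7.11 FPKM in drought leaves and 38.6 and 27.3 FPKM in well-watered leaves (-2.07 ± 0.20), and at 14.4 and 15.2 FPKM in drought ovaries and 6.56 and 7.45 FPKM in well-watered ovaries (0.98 ± 0.17). The replicates of GRMZM2G123212 were close in drought in both tissues, while those of GRMZM2G043878 were spread in 3 of the 4 groups.

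The members with the highest mean level differed by tissue. In the ovary these were GRMZM2G377131, GRMZM5G873459 and GRMZM2G144483. GRMZM2G144483 stood at 191 and 213 FPKM in drought ovaries and 22.7 and 16.9 FPKM in well-watered ovaries (3.30 ± 0.19). GRMZM5G873459 stood at 159 and 213 FPKM in drought ovaries and 49.1 and 35.9 FPKM in well-watered ovaries (2.10 ± 0.23). GRMZM2G377131 stood at 146 and 201 FPKM in drought ovaries and 62.9 and 64.8 FPKM in well-watered ovaries (1.41 ± 0.20). Their leaf changes were -1.06 ± 0.32, -0.92 ± 0.26 and -1.08 ± 0.24 in the same order of genes. Without drought leaf library 2 those of GRMZM2G144483 and GRMZM5G873459 were -0.63 and -0.58.

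In the leaf the highest were GRMZM2G170742, GRMZM2G305856 and AC217975.3_FG001. GRMZM2G170742 stood at 432 and 344 FPKM in drought leaves and 582 and 1167 FPKM in well-watered leaves (-1.09 ± 0.39). GRMZM2G305856, which is also among the 10 highest scores, stood at 229.8 and 161 FPKM in drought leaves and 297 and 1177 FPKM in well-watered leaves (-1.62 ± 0.70). For both, well-watered leaf library 2 was far above library 1. Without it the leaf changes were -0.59 for GRMZM2G170742 and -0.63 for GRMZM2G305856, and without library 1 that of GRMZM2G305856 was -2.61. AC217975.3_FG001 stood at 268 and 204 FPKM in drought leaves and 418 and 515 FPKM in well-watered leaves (-0.99 ± 0.22). In ovaries GRMZM2G305856 stood at 53.5 and 90.9 FPKM in drought and 7.11 and 3.24 FPKM when well watered (3.59 ± 0.38). GRMZM2G170742 and AC217975.3_FG001 had ovary changes of 2.00 ± 0.23 and 2.26 ± 0.22.

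At the edge of the set the scores ran on without a step. The last members, GRMZM2G075956, GRMZM2G107380 and GRMZM2G014988, scored 0.81, 0.80 and 0.80. GRMZM2G141241, GRMZM2G039443 and GRMZM5G830632, just outside, each scored 0.80. GRMZM2G014988 stood at 1.301 and 0.671 FPKM in drought leaves and 1.39 and 3.91 FPKM in well-watered leaves, a gap of 1.07-fold, and its leaf change was -1.32 without well-watered library 1 and -0.28 without well-watered library 2. GRMZM2G075956 stood at 36.2 and 32.2 FPKM in drought leaves and 56.9 and 64.2 FPKM in well-watered leaves, a gap of 1.57-fold. GRMZM2G107380 had leaf and ovary gaps of 1.31-fold and 1.19-fold. Its leaf change was -1.21 without drought library 1 and -0.40 without drought library 2, and its ovary change 2.1995 without well-watered library 1 and 0.59 without well-watered library 2. Outside the set, GRMZM5G830632 stood at 314 and 649 FPKM in drought ovaries and 8.32 and 17.1 FPKM in well-watered ovaries (5.12 ± 0.44), and missed the set by its leaf change of -0.80 ± 0.32.

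Of the 120 members, 71 matched a gene of the RefSeq annotation (59.2%, against 69.0% of eligible genes) and 13 had a name (10.8%, against 10.5%). GRMZM2G332522 and GRMZM2G033952, neighbours in the reference, shared all 8 values, at 73.4 and 161 FPKM in drought ovaries and 27.8 and 34.5 FPKM in well-watered ovaries, so the members hold 119 distinct profiles. Whether the pair is 1 measurement listed under both IDs was not tested, and 637 eligible genes share all 8 values with another gene.

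Relatives of the named members were counted by gene symbol or synonym. Of 4 PEBP family genes tested in the ovary, 4 were called higher, against 23.6% of all genes tested. In the leaf 4 were tested, not all of them the same genes. Limma called none of these, and 1 was lower at an unadjusted p under 0.05. Only 1 PEBP family gene, ZCN25, was eligible. MYB-type genes were split in the ovary, with 14 called higher and 13 lower of 42. In the leaf 2 were called higher and 3 lower of 33, and 11 of 28 eligible MYB-type genes (39.3%) had the members' pattern, against 15.9% of all eligible genes.

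Of 4 genes with a sat name, 2 had the members' pattern, both of them members, and 1, CNR08, has that name only as a synonym. Among 7 genes of phosphoenolpyruvate carboxylase and its kinases, 1 was called higher and 4 lower in the ovary, and 1 had the pattern. TCP genes were called higher in 2 and lower in 1 of 6 in the ovary, and 1 of 5 had the pattern. Cytochrome P450 genes were called higher in 2 and lower in 5 of 9 in the ovary, and 1 of 9 had the pattern. Of the CBL-interacting kinase genes, 1 of 2 was called higher in the ovary. These lists by symbol were drawn up after the members were seen, and relatives were matched on names alone, so a list can hold genes whose main symbol is another. In the gibberellin list, 1 gene was called higher and 4 lower of 10 in the ovary, and an1 was the 1 of 8 eligible genes with the pattern.

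Of 19 broader lists, 16 held no member. With 120 members among 19688 eligible genes, nothing is read from that count. Genes of the lists also held the wider pattern, higher in all drought ovaries and lower in all drought leaves. Its share varied around the 15.9% of eligible genes. The pattern was seen in 12 of 27 eligible genes of autophagy, proteases and chlorophyll breakdown (44.4%). This list had 15 of 30 genes called higher in the ovary, against 23.6% of all genes tested, with a median log2 change of 0.71. In the leaf 2 of 28 were called higher and 0 lower, with a median of -0.22. Of all genes tested in the leaf, 2.35% were called higher and 0.906% lower. At an unadjusted limma p under 0.05, 3 genes of the list were higher and 7 lower in the leaf. The pattern was also seen in 5 of 14 NAC factor genes (35.7%), 5 of 16 KNOX and leaf patterning genes (31.2%), 18 of 75 chromatin genes (24%), 10 of 44 HD-ZIP and bZIP genes (22.7%) and 12 of 55 auxin and cytokinin genes (21.8%). NAC factors, many of which act in stress and senescence, had 11 of 21 genes called higher and 3 lower in the ovary. In the leaf 2 of 17 were called higher and 0 lower, with 2 higher and 2 lower at an unadjusted limma p under 0.05.

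Most other lists held the pattern at a share near or below that of all eligible genes. The remaining transcription factors showed the pattern in 33 of 187 genes (17.6%), of which MYB59, MYBE1 and TCP30 are members. Abscisic acid genes and type 2C phosphatases showed it in 4 of 39 (10.3%), although 19 of 45 were called higher in the ovary and 10 lower. In cell division genes 43 of 59 were called lower in the ovary and 4 higher, and 3 of 43 had the pattern (6.98%). Trehalose, sucrose and starch genes had it in 1 of 32. Endosperm storage, floral MADS-box and lignified vascular genes had it in 1 of 5, 1 of 8 and 1 of 10. None of the eligible genes of photosynthesis (32), ribosomal proteins (28), expansins with cellulose and xyloglucan enzymes (20), dehydrins, LEA and heat shock proteins (15) or pollen and anther genes (7) had the pattern. Of those lists, ribosomal proteins had 25 of 30 genes and expansins with cellulose and xyloglucan enzymes 22 of 25 genes called lower in the ovary. The lists were chosen with earlier results of these data known, so these shares are a description.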

How the data were processed

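Polyadenylated RNA of maize ovary and basal leaf meristem was sequenced in 8 libraries, 2 in each of 4 groups. The authors deposited FPKM values, 1 table per tissue. CASAVA 1.8, TopHat 1.2.0 and Cufflinks 1.0.2 are named, with no roles, per the submitters' processing notes. No source used here states the genome build, the annotation, any further scaling or the read depth; without depth there is no counting error. Columns were assigned to groups through the group codes in the series' design text, which counts 1 biological replicate per condition while the protocol gives a pair.

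Members were found by the rule in the opening. Each tissue was fitted alone with limma 3.58.1 in R 4.3.3 (lmFit and trended eBayes) on log2 of FPKM plus 1 for genes whose mean reached 1 FPKM, with Benjamini-Hochberg adjustment. Residual degrees of freedom were 2 per fit, and the prior added 3.74 (ovary) or 2.42 (leaf). The fit was tested on simulated data. Alternatives were a pseudocount of 0.1 FPKM, a mean of at least 5 FPKM, no filter, upper quartile scaling, quantile normalization, eBayes with no trend, a replicate block and each library left out. A block with the leaf numbers crossed was added after seeing the data. The members, the 19 lists and the tests were chosen with earlier results of these data known. A few list patterns were corrected and 8 lists by symbol or synonym were added after the tables were read. Names came from the RefSeq annotation of the B73 genome. Named are the 10 highest scores, all members with a name or on a list, the 3 highest levels per tissue and the 3 genes on each side of the edge. HK1b2, not a member, is not described, and 1 named member is not reported here. Sequences, motifs and positions of the members were not analysed here.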

Additional observations from a re-analysis of the deposited data

Results flagged for a closer look

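In 3139 genes (15.9% of the eligible genes) both drought libraries were above both well-watered ones in the ovary and below both in the leaf. In 2046 genes (10.4%) drought was below in the ovary and above in the leaf. Both counts are listed for opposite directions in the 2 tissues, with no overlap of libraries in either. Genes that moved the same way in both tissues were also common: 1675 (8.51%) were higher and 2227 (11.3%) lower under drought in both. The difference between tissues was not tested, since each tissue was deposited in its own table.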

How the results depend on the processing

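Of the 120 members, 69 were chosen again at a mean of at least 5 FPKM, 103 at a pseudocount of 0.1 FPKM, 116 with no filter, 109 after quantile normalization, 120 after upper quartile scaling, and 78 to 109 with a library left out. Calls depended on single libraries: without one, limma called 2209 to 3796 genes higher and 3613 to 4669 lower in the ovary, with 66 to 88 members, and 0 to 1539 higher and 0 to 492 lower in the leaf, with 0 to 55 members. Without drought leaf library 1 or 2, where no gene was called in the leaf, 2516 and 1784 genes were at an unadjusted p under 0.05. The lone library of a condition is then assumed to vary like the other group, and such a fit has fewer residual degrees of freedom. With the replicate block, limma called 230 genes higher and 121 lower in the leaf, with 3 members, and the cause was not tested; in the ovary it called 5862 higher and 7283 lower, with 115 members. Same-numbered libraries deviated with a correlation over genes of 0.112 (ovary) and -0.175 (leaf), which cannot show whether they were paired. Crossing the leaf numbers, added after seeing the data, gave 425 higher and 186 lower, with 19 members. The members' median ovary change was 1.87 at a pseudocount of 0.1 FPKM and 1.38 to 1.87 without a library, and their median leaf change -1.28 to -0.87 without a library. Quantile normalization moved the ovary median of all genes by 0.11. Of 186 log2 changes of 31 named genes under the other pseudocount or scaling, 24 moved by more than 1 SD between replicates and 8 by over 1.5 times. With a library left out, 27 of 248 moved by over 1.5 times, and the report gives those of the genes it describes.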
